A study of Mus musculus with 14 samples.

Results

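Adipocyte marker genes were followed through sorted mouse mammary cells, as a measure of the fat-cell RNA in each population. The 9 genes (Adipoq, Cidec, Plin1, Retn, Cfd, Fabp4, Pparg, Lipe and Pnpla2) were taken by name, or by an older synonym such as Plin for Plin1, from the gene names of the array, which came to 27670 in all. They were read by 14 probes, and all 9 genes passed the filter on dim probes. On each of 14 arrays, Cy5-labelled RNA of 1 sorted population was set against a Cy3-labelled commercial reference pooled from 11 mouse cell lines. Wild-type FVB/N-J mice, virgin or pregnant, gave 3 populations with 2 arrays each. These were P4 (CD24+CD29hi, labelled as enriched for mammary stem cells), P5 (given the same 2 surface markers, labelled as enriched for luminal progenitors) and P6 (CD24lo, with no enrichment named). Virgin FVB/N-Luciferase transgenic mice of the line L2G85 gave 2 lineage-negative populations with high and low GFP, GFPhi and GFPlo, with 1 array each. Ages, the stage of pregnancy, and whether the 2 arrays of a group came from separate animals are not given in the sources used here, so p-values measure only the spread between these arrays, which may be technical. Levels are log2 ratios of sorted cells over the reference, and a difference between groups is the gap between their mean log2 ratios. A ratio of a pool of RNA cannot tell apart fewer cells of a type and less RNA per cell.

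Mammary epithelium grows within a fat pad, so fat cells surround the ducts from which these populations were prepared. Fat cells store triglyceride in a single large droplet coated by perilipin 1 (Plin1) and enlarged by Cidec, break it down with the lipases of Pnpla2 (adipose triglyceride lipase) and Lipe (hormone-sensitive lipase), and carry the released fatty acids on the binding protein Fabp4. Their differentiation is driven by the nuclear receptor Pparg, and they secrete adiponectin (Adipoq), resistin (Retn) and the protease adipsin (Cfd). Several of the 9 genes also have roles outside fat: Fabp4 and Pparg are expressed in small-vessel endothelium, and Pnpla2 in many tissues.

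Array-wide facts bear on these genes. Median Cy5 intensities of 70.9 to 196 stood over local backgrounds of 32 to 34.5, and the number of arrays limits the precision. There were 5 slides and 3 scanning batches. Replicate 1 of each pregnant population was in scan 3, which lacked the extended dynamic range, and had 111 to 236 saturated Cy5 spots per array against 0 to 15 on the others. The 2 arrays of a group correlated at 0.818 to 0.948 over all genes. All 8 listed basal genes were called higher in virgin P4 than in P5 (6.56% of all genes were), and 4 of 8, Trp63, Acta2, Oxtr and Col17a1, in pregnant mice (11.7%). All 10 listed fibroblast genes were called higher in P6 than in P4 in both conditions, as were 5.44% of all genes in virgin and 5.87% in pregnant mice.

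The probes below carry the findings that follow. Adiponectin and resistin are shown because their level separated single arrays, and the probes of Fabp4 and Pnpla2 because probes of the same gene differed. All are 60 bases long, are printed 5′ to 3′ as the array carries them, and hold at least 1 reading frame without a stop codon. Capitals mark the 22 bases that the overlapping Retn probes share. Positions are those given in the files for build mm7.
Adipoq, plus strand, chr16:22816125-22816184: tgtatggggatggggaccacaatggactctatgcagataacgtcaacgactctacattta
Retn, upstream probe, plus strand, chr8:3618519-3619340 across an intron: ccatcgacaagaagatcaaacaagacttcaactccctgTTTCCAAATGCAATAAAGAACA
Retn, downstream probe, plus strand, chr8:3618557-3619378 across an intron: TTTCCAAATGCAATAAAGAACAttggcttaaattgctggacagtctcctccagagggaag
Fabp4, upstream probe, minus strand, chr3:10216627-10216686: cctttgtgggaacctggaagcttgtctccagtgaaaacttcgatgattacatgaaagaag
Fabp4, middle probe, minus strand, chr3:10212718-10213447 across an intron: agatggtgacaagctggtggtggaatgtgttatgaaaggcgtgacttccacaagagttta
Pnpla2, upstream probe, plus strand, chr7:137876465-137876524: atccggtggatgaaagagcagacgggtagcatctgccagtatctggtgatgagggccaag
The 2 Fabp4 probes shown are separated by the body of the gene, and a further Fabp4 probe, the brightest, lies at chr3:10212636-10212696. Where a gene had several probes, the brightest stood for the gene.

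Adipoq, Cidec, Plin1 and Retn were high on 1 pregnant P4 array and not on its replicate. Adipoq was at 4.54 on pregnant P4 replicate 1 and at 0.65 on replicate 2. In pregnant P5 it was at 2.89 and 1.34, and in pregnant P6 at 1.43 and 0.14, again with replicate 1 the higher. In virgin mice the 2 arrays of P4 gave 0.61 and 0.51, those of P5 0.09 and 0.20, and those of P6 1.09 and 0.57. GFPhi was at 0.25 and GFPlo at 0.18. The array of pregnant P4 replicate 1 thus lay above all 13 others, the groups pregnant P4 and P5 overlapped, and no virgin array exceeded 1.09. In Cy5 intensity, before any correction, the Adipoq spot read 15707 on that array and 52.1 to 1047 on the rest.

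**Figure D1:**
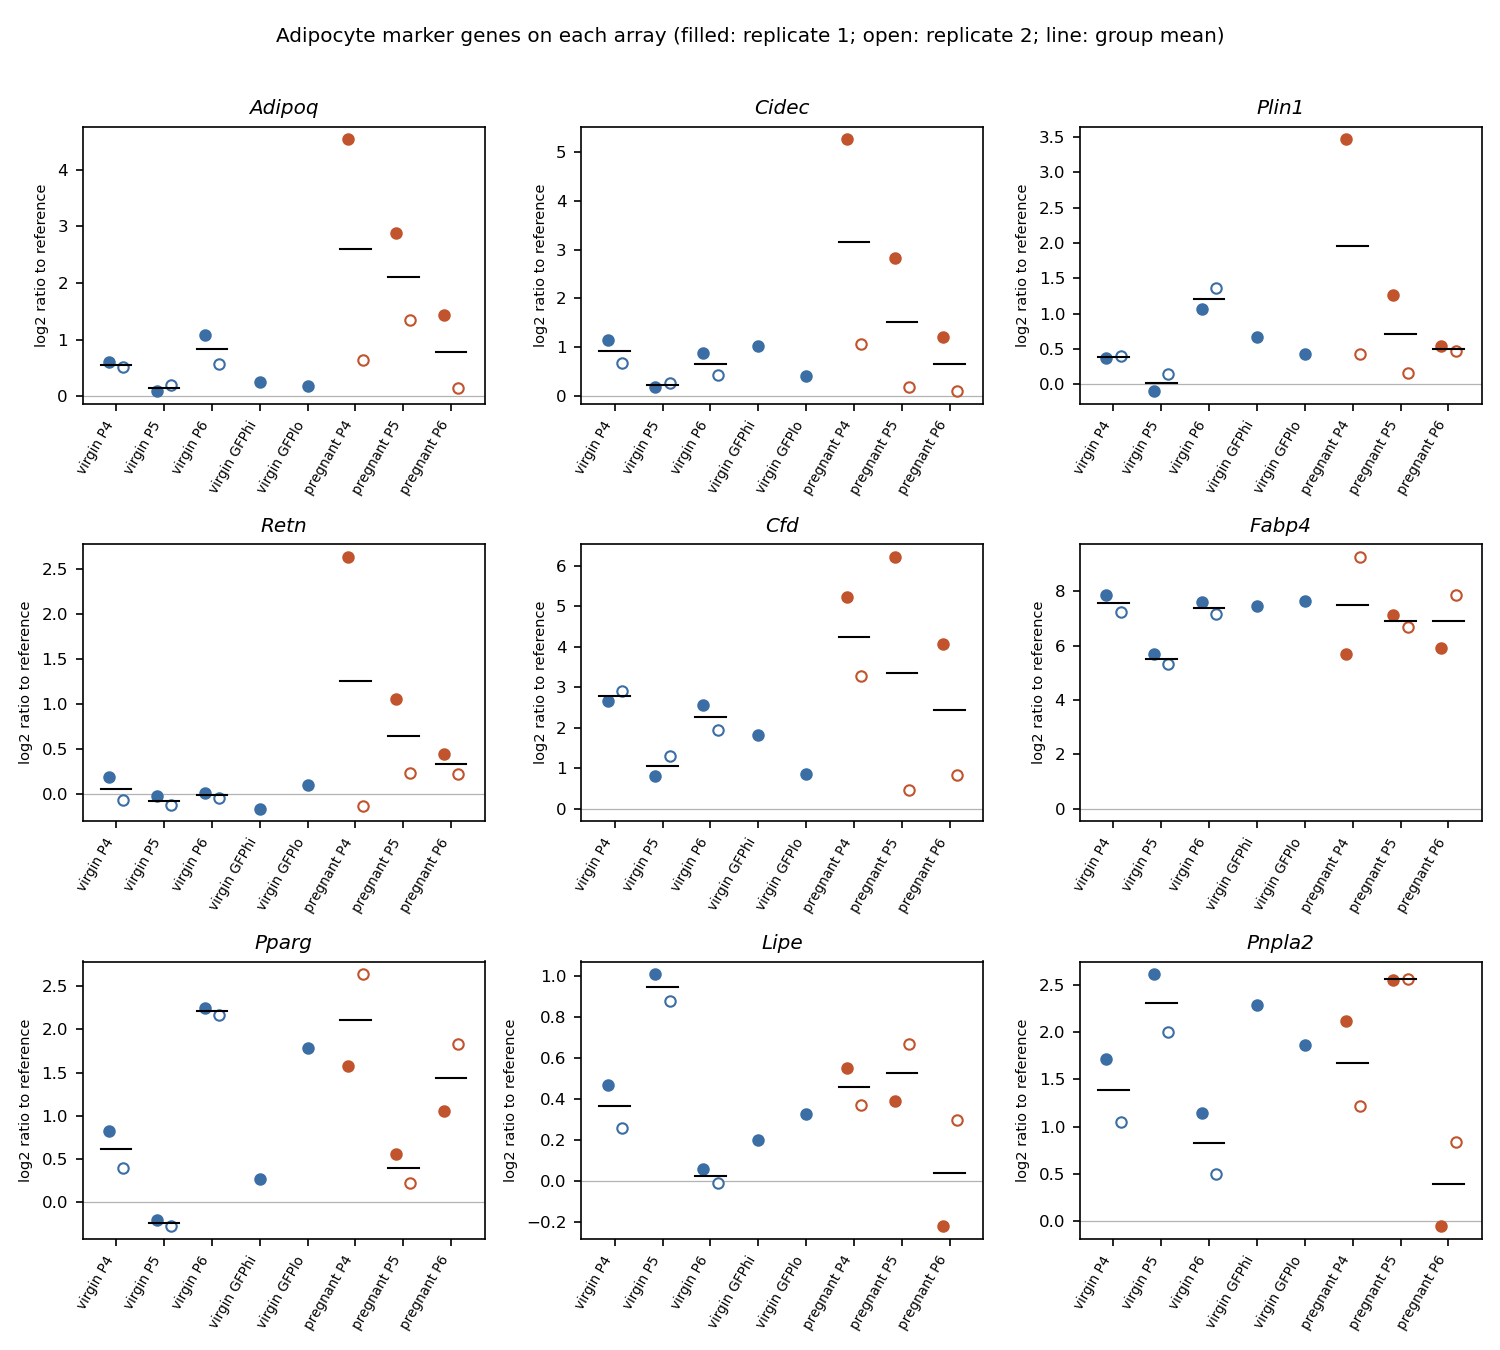
Log2 ratio to the reference (y axis) of each of the 9 genes on every array, by group (x axis). Filled points are replicate 1, open points replicate 2, blue virgin and orange pregnant, and lines are means of 2 arrays. Adipoq, Cidec, Plin1 and Retn stand highest on pregnant P4 replicate 1 (4.54, 5.27, 3.47 and 2.64), while Pparg and Fabp4 stand highest on pregnant P4 replicate 2 (2.64 and 9.28).

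Cidec, which enlarges the droplet, ran in parallel. It was at 5.27 and 1.06 in pregnant P4, at 2.83 and 0.18 in pregnant P5, and at 1.20 and 0.09 in pregnant P6. Virgin arrays ran from 0.17 to 1.15, with P4 at 1.15 and 0.67, and GFPhi at 1.02 and GFPlo at 0.40. Plin1, the droplet's coat, was at 3.47 and 0.43 in pregnant P4, at 1.26 and 0.16 in pregnant P5 and at 0.54 and 0.47 in pregnant P6. In virgin mice Plin1 was highest in P6, at 1.06 and 1.36, against 0.37 and 0.40 in P4 and -0.10 and 0.14 in P5. The virgin P6 arrays stood above the other virgin arrays and, of the pregnant ones, were exceeded by P4 replicate 1, with P5 replicate 1 lying between them.

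Retn gave the flattest background. Its virgin levels ran from -0.17 to 0.18, that is, at the level of the reference. Pregnant P4 gave 2.64 and -0.14, P5 1.05 and 0.23, and P6 0.44 and 0.22. The overlapping downstream probe showed the same arrays, with 3.27 on pregnant P4 replicate 1, 1.13 on P5 replicate 1 and 0.40 on P6 replicate 1. On its other 11 arrays that probe ran between -0.10 and 0.18.

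Cfd differed from these 4 in its baseline. It was at 2.66 and 2.92 in virgin P4, 0.80 and 1.30 in virgin P5, 2.57 and 1.95 in virgin P6, 1.83 in GFPhi and 0.87 in GFPlo. Pregnant P5 gave 6.23 and 0.47, the widest measured gap between replicates among the 9 genes, at 53.9-fold. Pregnant P4 gave 5.22 and 3.28, and pregnant P6 4.06 and 0.83. The spot was saturated on pregnant P4 replicate 1, so its level there is a lower limit in Cy5 and cannot be ranked against pregnant P5 replicate 1. The 3 replicate 1 arrays of pregnant mice were the 3 highest of all 14.

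Replicate 1 of pregnant P4 exceeded replicate 2 by 3.90 for Adipoq, 4.21 for Cidec, 3.04 for Plin1 and 2.78 for Retn. For Cfd the gap was 1.93 with the saturated spot taken at its value. Of all genes tested, 0.0677% were at least as far apart between those 2 arrays as Adipoq and 0.0423% as Cidec. In pregnant P4, 7 of the 9 genes differed by over 1 between replicates, against 7.27% of all genes. The counts were 4 of 9 in pregnant P5 (5.07% of all genes) and 4 of 9 in pregnant P6 (9.73%), and 0 of 9 in each virgin group (1.43% to 4.08%). Fabp4 and Pparg went the other way in pregnant P4 and P6, with replicate 1 minus replicate 2 at -1.06 for Pparg in P4 and at -1.97 and -0.79 for Fabp4 and Pparg in P6. The Fabp4 probe was saturated on pregnant P4 replicate 1, where it gave -3.57, and the unsaturated upstream probe was at 3.88 and 5.39 in pregnant P4.

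**Figure D2:**
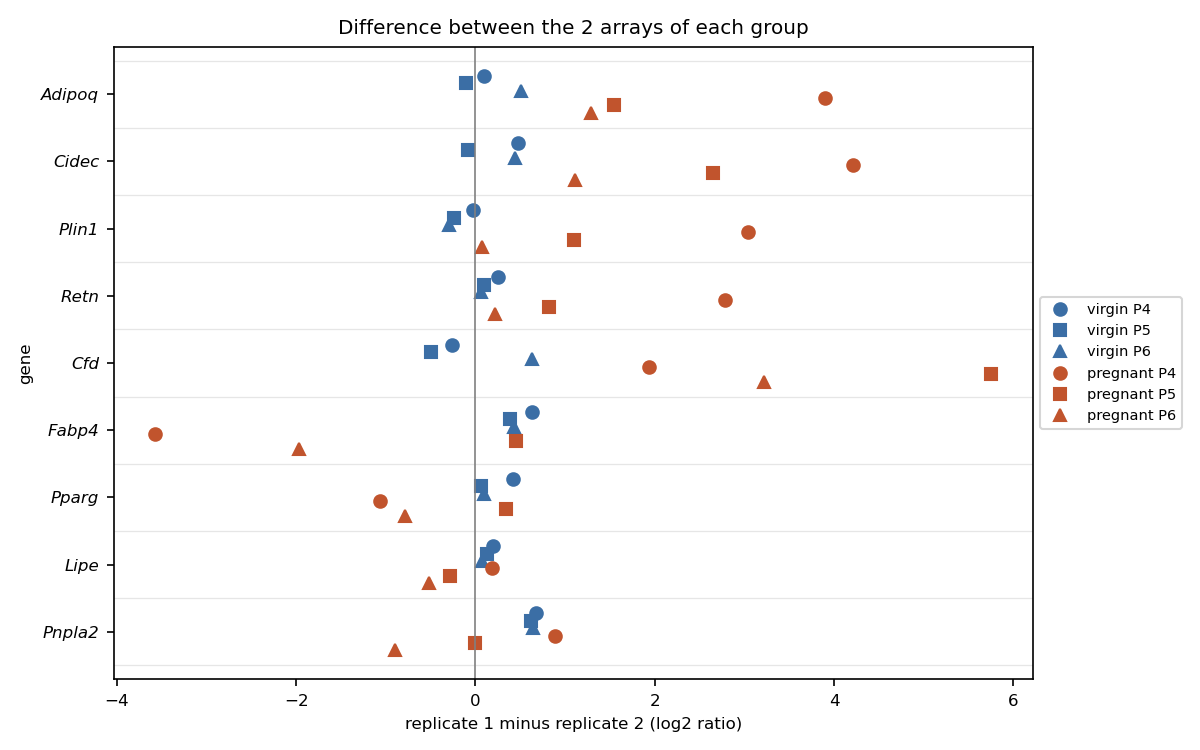
Replicate 1 minus replicate 2 in log2 ratio (x axis) for each gene (y axis), blue in virgin and orange in pregnant groups, with circles for P4, squares for P5 and triangles for P6. Cfd in pregnant P5 lies at 5.75. The points of Cfd (1.93) and Fabp4 (-3.57) in pregnant P4 each include a spot saturated on replicate 1 and are not exact, while all virgin points lie between -0.50 and 0.68.

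The reference channel moved at several of the same spots. Its Cy3 intensity on pregnant P4 replicate 1 was 206 for Adipoq against 35.7 to 72.3 on the 13 other arrays, 133 for Cidec against 53.5 to 85, and 668 for Cfd against 33.0 to 83.8. For Plin1 it was 87.6 against 52.4 to 72.2, and for Retn 180 against 46.7 to 168. For Fabp4 it was 454, within the range of the others, 235 to 460. The reference was the same product throughout, and the part of these readings in the ratios was not tested. The Cy3 level of Pnpla2 on this array, 1540, lay within the range of the others, 1210 to 1840.

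Marker lists of other cell types were mostly lower on the array high in Adipoq. On pregnant P4 replicate 1 and 2 the mean log2 ratio was 2.63 and 3.75 over 10 endothelial genes, -0.67 and -0.85 over 10 fibroblast genes, the 1 list given here that was higher on replicate 1, and -0.95 and 0.14 over 10 macrophage genes. Over 8 skeletal muscle genes both arrays were at -0.20. Basal genes were at 3.90 and 6.06, and 8 genes of milk-secreting cells at 3.35 and 5.83. The casein Csn2 was at 6.63 and 11.31 in pregnant P4, 7.62 and 12.09 in P5 and 7.68 and 9.99 in P6, so replicate 2 was the higher in all 3 groups. Csn2 thus differed between the pregnant replicates in the opposite direction to Adipoq, and the part of this in the results was not tested.

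Over the 14 arrays Adipoq correlated with Cidec at r = 0.938, with Retn at 0.946, with Plin1 at 0.853 and with Cfd at 0.780, and with Fabp4 at -0.304, Pparg at 0.105, Lipe at -0.0193 and Pnpla2 at 0.200. These are descriptions over arrays that share a reference, scans and slides. Adipoq was at 4.54 and 2.89 on replicate 1 of pregnant P4 and P5 and at most 1.43 elsewhere. The weight of those arrays in r was not tested. The Fabp4 value of 5.71 on pregnant P4 replicate 1 came from a saturated spot. The genes most alike in pattern to Adipoq were a transcript with only a design name (NAP112201-1, r = 0.961), Retn and the major urinary protein gene Mup4 (r = 0.943). Those for Cidec were Mup4 (0.963), the same unnamed transcript (0.959) and Cyp2e1 (0.957), a cytochrome P450. Those for Plin1 were Cyp2e1 (0.929), Mup4 (0.925) and Mup1 (0.898), and those for Retn LOC620807 (0.974), Tmem45b (0.969) and Cyp2e1 (0.964). Mup4 itself was at 3.54 and 0.44 in pregnant P4, 1.94 and 0.19 in P5 and 1.08 and 0.51 in P6, and Cyp2e1 at 3.28 and 0.25, 1.12 and 0.28, and 0.21 and -0.05. Cfd was most like the unnamed NAP025923-1 (0.952), Eif4g2 (0.920), a translation factor, and Tpt1 (0.897).

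Promoters came from a RefSeq table of build GRCm38.p6. The 250 bases before the Adipoq start are printed because Adipoq leads the genes that moved together, with the CCAAT box and its reverse complement in capitals.
Adipoq, GRCm38.p6, plus strand, chr16:23146286-23146535: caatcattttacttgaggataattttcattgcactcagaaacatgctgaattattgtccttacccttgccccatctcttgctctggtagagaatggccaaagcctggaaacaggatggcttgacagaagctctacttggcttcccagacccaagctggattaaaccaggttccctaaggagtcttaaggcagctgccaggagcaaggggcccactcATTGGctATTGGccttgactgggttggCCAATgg
CCAAT, searched on both strands, was present in 2 of the 8 listed genes with a promoter in the table, Adipoq and Pparg, and in 33.8% of all 32851 windows of that length. The C/EBP core TTGCNNAA was in 3 of 8, Cidec, Plin1 and Pparg, against 9.56% of windows. Among the other motifs searched, the nuclear receptor motif AGGTCA was in 1 of 8, Pparg, against 14% of windows. The TATA box TATAAA was in 1 of 8, also Pparg, against 12.4%. The listed counts are of genes and the background is of windows, and a gene may have several windows. These shares are therefore not directly comparable, and an excess was not tested.

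Fabp4, the fatty acid carrier, was high throughout. Its log2 ratio ran from 5.33 to 9.28 with a median of 7.22. Virgin P4 gave 7.88 and 7.25, P5 5.71 and 5.33, P6 7.61 and 7.18, GFPhi 7.48 and GFPlo 7.66. Pregnant P4 gave 5.71 and 9.28, P5 7.13 and 6.68, and P6 5.91 and 7.88. Virgin P5 was the lowest group, and its higher array equalled the lowest pregnant one, P4 replicate 1, to 2 decimals. That pregnant array was saturated at this probe and at the middle probe, which gave 4.44 there against 7.13 on replicate 2. The upstream probe, dimmer and saturated on no array, gave 3.88 and 5.39 in pregnant P4, with replicate 2 the higher. By the saturated probes the level on replicate 1 is a lower limit in Cy5 and cannot be ranked against replicate 2.

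The array of pregnant P4 replicate 2, highest for Fabp4, was also highest for endothelial genes. Their summed Cy5 level over 10 genes was 31453 there, 16772 on replicate 1, 13396 and 13934 in virgin P4, and 2595 to 7220 on the 10 arrays of the other groups. Pecam1 was at 2.18 on that array and Cdh5 at 6.37, against 1.64 and 4.81 on replicate 1. The part of endothelial RNA in the Fabp4 level was not tested. The genes most alike to Fabp4 were Gvin1 (r = 0.877), the leukocyte gene Hcls1 (0.843) and AK139506 (0.836).

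Pparg, the nuclear receptor of fat-cell differentiation, was ordered by population in virgin mice. Virgin P6 gave 2.25 and 2.17, P4 0.82 and 0.40, and P5 -0.21 and -0.28, with no overlap between these groups. Pregnant P4 gave 1.58 and 2.64, P6 1.05 and 1.83, and P5 0.56 and 0.22, with P4 and P6 overlapping and P5 below both. GFPhi was at 0.27 and GFPlo at 1.79. By group mean the order was virgin P6, pregnant P4, GFPlo, pregnant P6, virgin P4, pregnant P5, GFPhi and virgin P5. The first 4 overlapped with their neighbours, a gap lay between pregnant P6 and virgin P4, and virgin P5 stood below GFPhi.

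Pnpla2, which starts triglyceride breakdown, had its highest means in P5. Pregnant P5 gave 2.56 and 2.57 and virgin P5 2.62 and 2.00. P4 gave 2.12 and 1.22 in pregnant and 1.72 and 1.05 in virgin mice, and P6 -0.06 and 0.84 in pregnant and 1.14 and 0.50 in virgin mice. P5 and P6 did not overlap in either condition. GFPhi and GFPlo were at 2.29 and 1.87 by this probe, but at 0.01 and 0.05 by the upstream probe printed above, so their Pnpla2 level depended on the probe. The upstream probe gave 1.51 and 1.94 in virgin P5 against -0.23 and 0.20 in virgin P6, and 2.27 and 2.31 in pregnant P5 against -0.08 and 0.11 in pregnant P6, the same order as the main probe.

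Lipe, the next lipase in the pathway, stayed near the reference, between -0.22 and 1.01. Virgin P5 gave 1.01 and 0.88, above virgin P4 at 0.47 and 0.26 and virgin P6 at 0.06 and -0.01. Pregnant P5 gave 0.39 and 0.67, P4 0.55 and 0.37, and P6 -0.22 and 0.30. A second Lipe probe gave 0.41 and 0.95 in virgin P5 and 0.07 and 0.00 in virgin P6. A further probe, tied to Lipe only through a RIKEN clone name not counted among the 14 and well above background on 4 arrays, gave 1.06 and 1.04 in virgin P5 and -0.25 to 0.15 on the other 12 arrays. GFPhi was at 0.20 and GFPlo at 0.33.

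Populations were compared within each condition, with limma fitted over all genes and Benjamini-Hochberg adjusted p under 0.05 as the call. In virgin mice P5 and P6 differed in 3 of the 9 genes, against 16.1% of all genes (7.32% higher and 8.82% lower in P5). Pparg was lower in P5, at a difference of -2.45 (5.47-fold, SE 0.364, adjusted p = 0.00187), Lipe higher by 0.92 (1.89-fold, SE 0.194, adjusted p = 0.0118) and Pnpla2 higher by 1.48 (2.80-fold, SE 0.426, adjusted p = 0.048). The Pnpla2 call was lost when any of 8 single arrays was left out, at adjusted p up to 0.252 without virgin P5 replicate 1 and 0.242 without virgin P6 replicate 2. The Lipe call was lost without virgin P5 replicate 1 (adjusted p = 0.0791), virgin P5 replicate 2 (0.0503) or virgin P6 replicate 2 (0.0682), while Pparg kept its call whichever array was left out. Leaving out the arrays of scan 3 left 1 array per pregnant group, and more of the 9 and of all genes were then called.

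Between virgin P4 and P6, 1 of 9 genes was called (10.3% of all genes, 4.88% higher and 5.44% lower). Pparg was lower in P4, at a difference of -1.60 (3.03-fold, SE 0.364, adjusted p = 0.0252). This call was lost with median centring in place of loess (adjusted p = 0.0653), with local backgrounds as given (a difference of -0.99, adjusted p = 0.248), and without any 1 of the 4 arrays compared (adjusted p up to 0.176). Between virgin P4 and P5, 0 of 9 were called (11.4% of all genes, 6.56% higher and 4.8% lower), with 2 at an unadjusted p under 0.05, Pparg and Lipe. With scan as a block Lipe was called there, beside 3019 of all 23645 genes higher and 2713 lower. Without scan 3 more of the 9 and more of all genes were called between virgin P4 and P5.

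In pregnant mice Pparg was higher in P4 than in P5 by 1.72 (3.30-fold, SE 0.364, adjusted p = 0.0104), the 1 of 9 called there (22.6% of all genes, 11.7% higher and 10.9% lower). Leaving out pregnant P5 replicate 2 ended this call (adjusted p = 0.072), as did fitting only the 4 arrays compared (0.0726). Leaving out pregnant P4 replicate 2 left that group with replicate 1 alone, the array high in Adipoq. The gap between its replicates then no longer entered the spread, so calls from that fit are not read here. Pnpla2 was higher in pregnant P5 than in P6 by 2.18 (4.52-fold, SE 0.426, adjusted p = 0.00567), again 1 of 9 (26.9% of all genes, 13.8% higher and 13.2% lower). It kept this call whichever array was left out, and missed it with median centring (0.0595) and without scan 3 (a difference of 1.73, adjusted p = 0.0693). With scan as a block, which here equals the replicate block, Lipe and Pparg were called as well, making 3. In that fit 5663 of all 23646 genes were higher and 4807 lower. Between pregnant P4 and P6, 0 of 9 were called (12.1% of all genes, 6.2% higher and 5.87% lower), with 1, Pnpla2, at an unadjusted p under 0.05. With scan as a block 2 were called there, Cidec and Pnpla2, beside 3119 of all 23646 genes higher and 2654 lower.

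**Figure D3:**
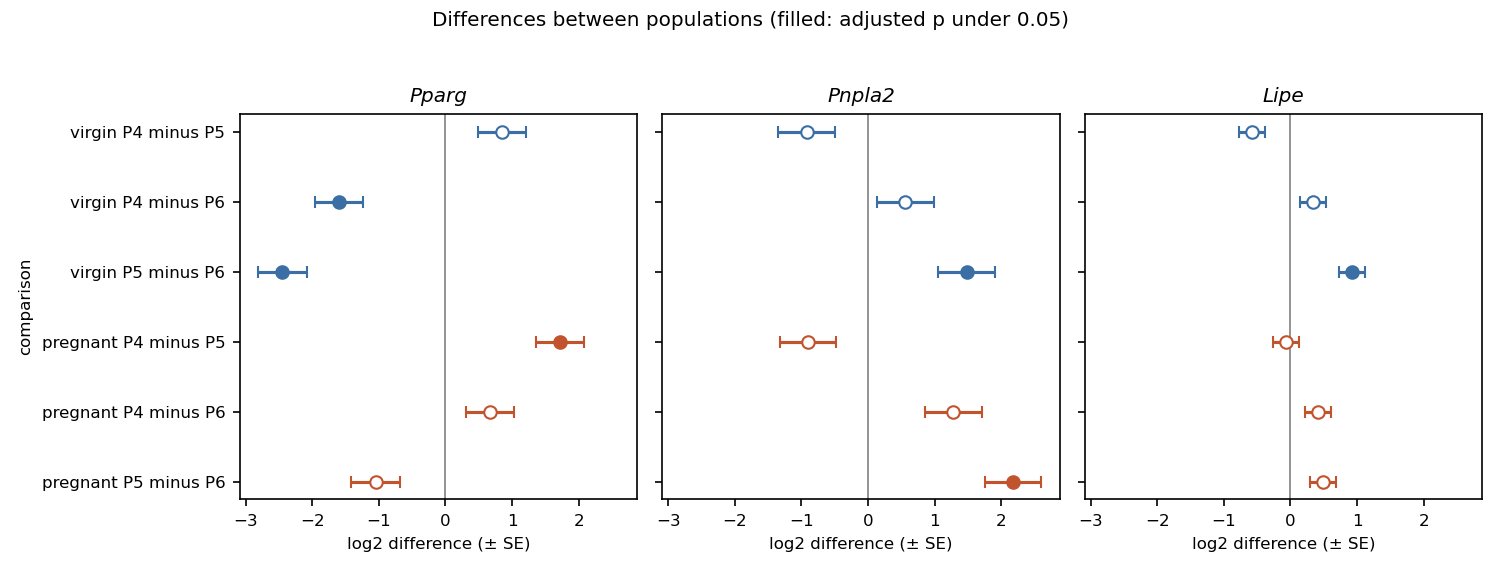
Log2 differences between populations with SE (x axis) for Pparg, Pnpla2 and Lipe in the 6 comparisons within a condition (y axis), blue in virgin and orange in pregnant mice. Filled points passed the adjusted p of 0.05: Pparg at -1.60, -2.45 and 1.72, Pnpla2 at 1.48 and 2.18, and Lipe at 0.92.

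The intervals of the genes that differed between pregnant replicates were wide in virgin mice too, because all 12 arrays share 1 estimate of the spread. The 95% interval of Adipoq between virgin P4 and P5 was -2.06 to 2.90 and that of Retn -1.52 to 1.78, although each virgin pair of arrays lay within 0.51 for Adipoq and 0.25 for Retn. For the pregnancy difference of Adipoq in P4 the SE was 1.08 over all arrays and 0.237 without scan 3.

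Pregnant and virgin mice were compared in each population. In P4, 0 of 9 genes were called (3.75% of all genes, 1.49% higher and 2.25% lower), with 1, Pparg, at an unadjusted p under 0.05. The fitted differences were 2.03 for Adipoq (SE 1.08, adjusted p = 0.441), 2.25 for Cidec (SE 1.26, adjusted p = 0.467), 1.57 for Plin1 and 1.20 for Retn. Their median over the 9 was 1.46, against -0.03 over all genes. Within scan 2, the 1 scan with both conditions, pregnant P4 minus virgin P4 was 0.13 for Adipoq, 0.39 for Cidec, 0.03 for Plin1, -0.07 for Retn and 0.37 for Cfd. Pparg differed by 1.5 over all arrays (SE 0.364, adjusted p = 0.0662) and by 2.24 within scan 2. It was called with scan as a block (adjusted p = 0.0217). Without pregnant P4 replicate 1, which left 1 array in that group, Pparg differed by 2.03. Without pregnant P4 replicate 2, Adipoq, Plin1 and Retn differed by 3.98, 3.08 and 2.59. That fit left pregnant P4 with replicate 1 alone, so the gap between its replicates no longer entered the spread. With the replicate block, Adipoq (adjusted p = 0.0413), Cidec (0.0365) and Pparg (0.0138) were called. In that fit 2044 of all 23646 genes were higher and 2403 lower.

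In P5, 0 of 9 were called (21.4% of all genes, 10.7% in each direction), with 0 at an unadjusted p under 0.05. Adipoq differed by 1.97 (SE 1.08, adjusted p = 0.251), Cfd by 2.30 and Cidec by 1.29. Both pregnant P5 arrays were above both virgin ones for Adipoq, and within scan 2 the difference was 1.14. With the replicate block Adipoq was called (adjusted p = 0.0245), as was Cfd, beside 5047 of all 23645 genes higher and 4589 lower. Without scan 3 the Adipoq difference was 1.19. Cfd turned to -0.57 and Cidec to -0.03 without pregnant P5 replicate 1, and Cfd to 5.18 without replicate 2. Each of these fits left 1 pregnant P5 array. In P6, 0 of 9 were called (0.186% of all genes, 0.0465% higher and 0.14% lower), with 0 at an unadjusted p under 0.05, and the median was -0.05 against -0.01 over all genes.

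**Figure D4:**
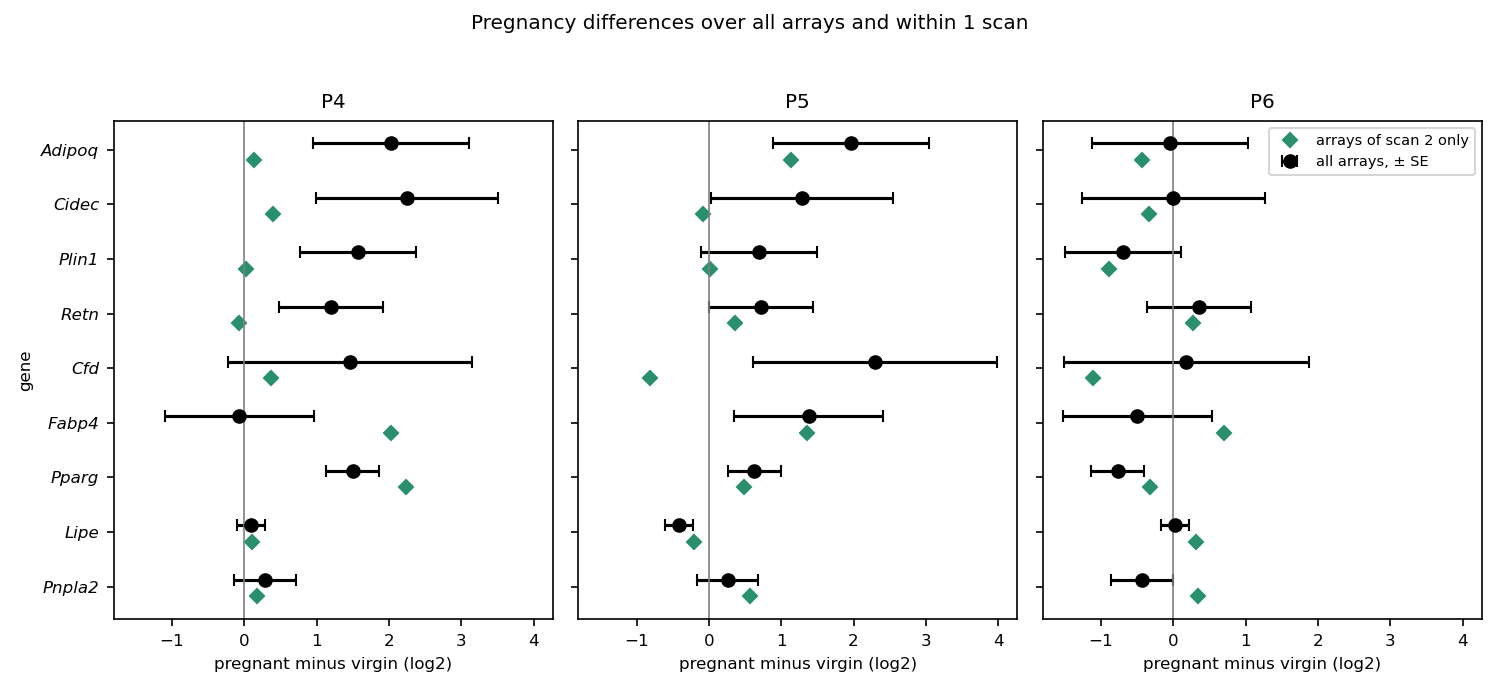
Pregnant minus virgin log2 difference (x axis) for each gene (y axis) in P4, P5 and P6. Black points with SE are the fit over all arrays and green diamonds the 1 array of each condition in scan 2. In P4 the diamonds of Adipoq, Cidec, Plin1, Retn and Cfd lie between -0.07 and 0.39, while that of Pparg lies at 2.24 and that of Fabp4 at 2.03.

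Whether the pregnancy difference itself varied among P4, P5 and P6 was tested with an F test. It called 0 of 9 genes (7.95% of all genes), with 1 at an unadjusted p under 0.05, Pparg (adjusted p = 0.0655). Pparg was higher on both pregnant P4 arrays than on both virgin ones, and lower on both pregnant P6 arrays. Over all 14 arrays in 4 classes, stem-cell-enriched cells (P4, and GFPhi in virgin mice) were set against the depleted ones (P5 and P6, and GFPlo in virgin mice). The populations of a class counted as its replicates, so differences between them entered the spread. The SE of Pparg was 0.634 in the virgin class contrast and 0.364 between virgin P4 and P6. In virgin mice 0 of 9 were called (1.62% of all genes, 1.52% higher and 0.106% lower) and 0 had an unadjusted p under 0.05. In pregnant mice 0 of 9 were called (2.49%, 2.25% higher and 0.237% lower) and 1, Cidec, had an unadjusted p under 0.05. The difference between both conditions called 0 of 9 (0.0973%, 0.0677% higher and 0.0296% lower), with 0 at an unadjusted p under 0.05. Without pregnant P4 replicate 2, the enriched class of pregnant mice held replicate 1 alone, so calls from that fit are not read here.

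Of 18 other fat-cell genes, 8 were called higher in pregnant than in virgin P4 and 0 lower, with a median of 1.42. Of all genes 1.49% were higher and 2.25% lower, with a median of -0.03. Called genes included leptin (Lep), the satiety hormone, Cidea, a relative of Cidec, Lpl, the lipase that takes fat from blood lipoproteins, and Plin4, another droplet coat. Lep was at 3.92 and 4.78 in pregnant P4 and between -0.04 and 0.61 on the 12 other arrays, a difference between pregnant and virgin P4 of 4.05 (16.6-fold, SE 0.247, adjusted p = 0.000378). Cidea was at 5.43 and 7.05 in pregnant P4 against 1.36 and 1.33 in virgin P4, and differed by 4.89 (adjusted p = 0.0264). Plin4 was at 4.03 and 4.02 against 1.76 and 0.69, and Lpl at 3.81 and 3.28 against 0.15 and 0.11. Both pregnant arrays stood above both virgin ones for these 4 genes. Over all arrays Lep and Plin4 were highest in pregnant P4. Lpl was higher in virgin P6 (4.75 and 5.59) and pregnant P5 (6.21 and 6.59), and Cidea reached 8.43 in pregnant P5. Genes of milk-secreting cells averaged 3.35 and 5.83 in pregnant P4 against 3.04 and 2.53 in virgin P4, and their part was not tested. Without scan 3, 5 of the 18 were called in P4, Lep, Plin4, Cidea, Lpl and G0s2, and with only the 4 arrays compared, 0 were, as were 0 of all 23646 genes.

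**Figure D5:**
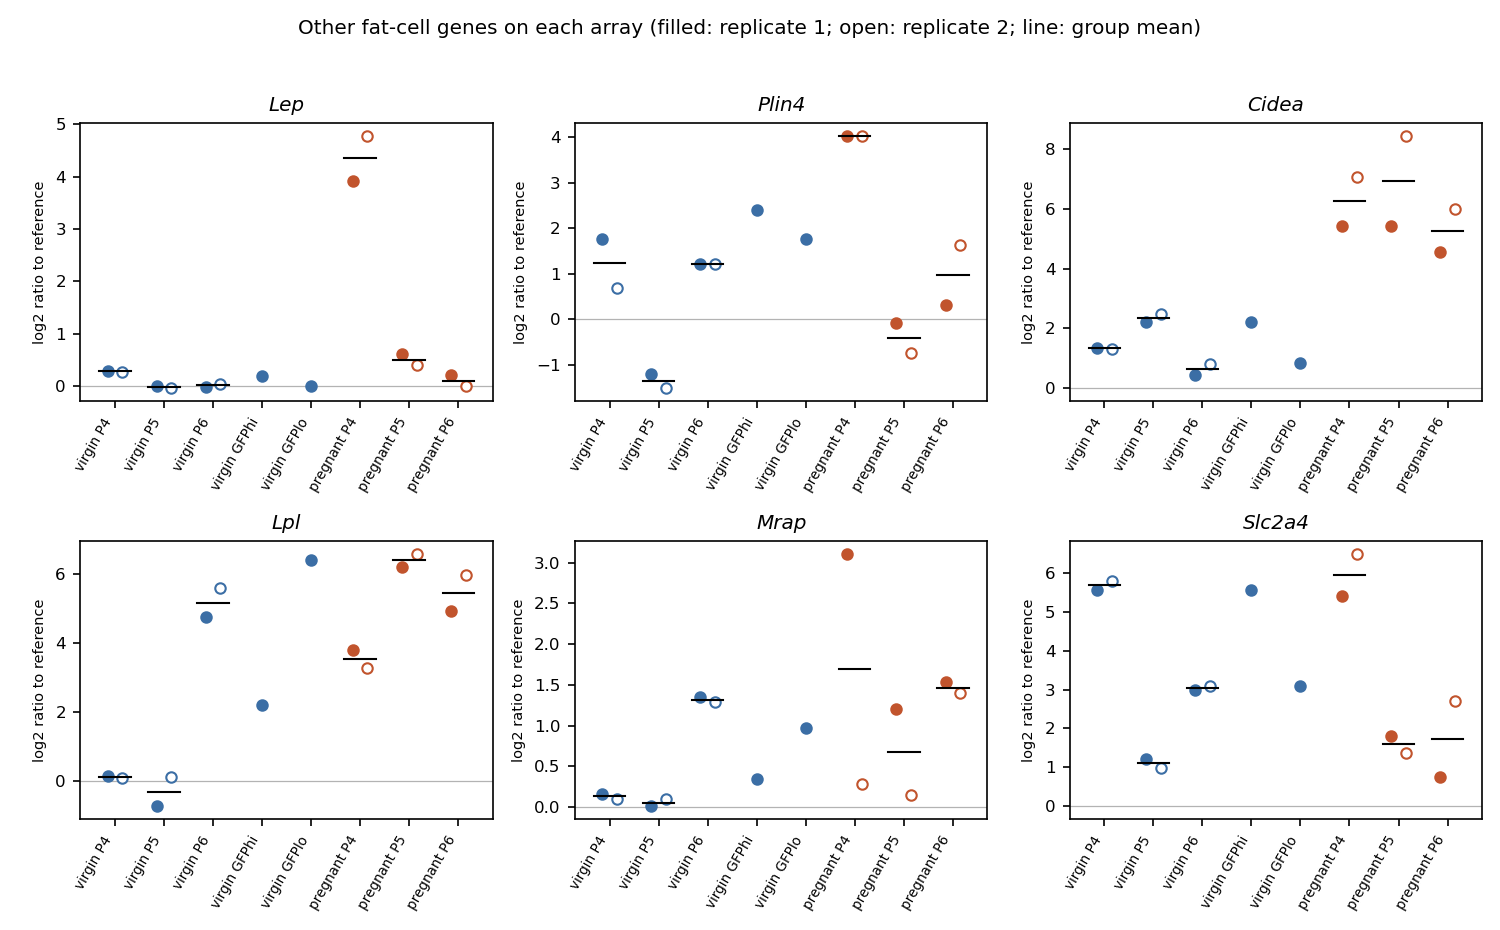
Log2 ratio to the reference (y axis) of Lep, Plin4, Cidea, Lpl, Mrap and Slc2a4 on every array, by group (x axis), with filled points for replicate 1, open points for replicate 2 and lines for means of 2 arrays. Lep is at 3.92 and 4.78 on both pregnant P4 arrays, whereas Mrap is at 3.11 and 0.28.

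Some other genes of that list were, like Adipoq, higher on pregnant P4 replicate 1 than on replicate 2. Those given here are named after their values were seen. Mrap, an accessory of the corticotropin receptor in fat, was at 3.11 and 0.28 in pregnant P4. Pck1, an enzyme of glyceroneogenesis, was at 3.21 and 0.52, Ucp1, the uncoupling protein of brown fat, at 2.09 and 0.48, and Rbp4, the retinol carrier, at 2.96 and -1.17. Ucp1 was at most 0.77 on the other 13 arrays, while Rbp4 was at 4.21 and 3.78 in virgin P6. Lep, Slc2a4, Aqp7, Cidea, Cd36 and Itih5 of the same list went the other way, lower on replicate 1. Among them Cidea was at 5.43 and 7.05, and Slc2a4 at 5.41 and 6.49.

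In P5, 6 of the 18 rose with pregnancy and 1 fell, with a median of 0.57, against 10.7% of all genes in each direction and a median of 0.04. Lpl rose by 6.69 (103-fold, adjusted p = 4.04e-05), the fatty acid transporter Cd36 by 5.59 (48.1-fold), the fatty acid activator Acsl1 by 5.26 (38.3-fold) and Cidea by 4.57 (23.8-fold). Lpl was at 6.21 and 6.59 in pregnant against -0.72 and 0.13 in virgin P5, and these 4 calls held without scan 3. Of 9 tested genes of the lipid droplet and lipolysis list, 3 rose in P5 and 1 fell, against the same 10.7% each way. Among them Abhd5, the activator of the Pnpla2 lipase, rose by 2.97 (7.83-fold, adjusted p = 0.000126) and Plin2, the droplet coat of many cell types, by 2.80 (6.94-fold, adjusted p = 0.00292), while Plin5 fell by 0.98. Of 8 genes of milk-secreting cells, 3 were called higher in pregnant P5, and their mean log2 ratio was 5.12 and 7.27 there against 3.85 and 3.70 in virgin P5. Of 9 luminal genes 7 were called lower in pregnant P5 and 0 higher, and of 8 skeletal muscle genes 8 lower and 0 higher. The part of milk-secreting or other cells in the lipid genes was not tested. In P6, 1 of 18 rose (0.0465% of all genes), G0s2, an inhibitor of the Pnpla2 lipase, by 1.55 (adjusted p = 0.045). The count was 0 with the scanner's ratio, median centring or local backgrounds as given. It was also 0 with slide as a block or only the arrays compared.

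Regulators of fat-cell differentiation, 16 genes, showed no common direction. In P5, 4 rose with pregnancy and 2 fell, where 21.4% of all genes were called. Klf15 rose by 4.40 (21.1-fold, adjusted p = 0.000211) and Srebf1, the driver of lipid synthesis genes, by 1.65, while Gata3, a regulator of luminal cells, fell by 2.99 and Cebpd fell by 1.27. In P4, where 3.75% of all genes were called, 2 rose, Klf15 by 2.00 and Srebf1 by 0.81, and Klf5 fell by 3.19. Without scan 3 the Klf5 call remained in P4 and those of Klf15 (adjusted p = 0.23) and Srebf1 (0.0563) did not, and in P5 that of Cebpd was lost (0.0912). Ebf1 and Ebf2, early factors of the fat-cell lineage, were higher in virgin P6 than in P5, with P5 minus P6 at -4.17 and -3.48, the direction of Pparg, and P6 was also the population with all 10 fibroblast genes higher.

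Among the 4 adipokine receptors, Cdh13, which binds adiponectin, was higher in P4 than in P5 by 2.30 in virgin mice (adjusted p = 0.0106) and by 3.35 in pregnant mice (adjusted p = 0.00101). It was the 1 receptor called between P4 and P5 in either condition, where 11.4% of all genes were called in virgin and 22.6% in pregnant mice. The adiponectin receptors Adipor1 and Adipor2 were higher in virgin P5 than in P6 by 0.94 and 0.64, and the leptin receptor Lepr differed by -0.53. These were 3 of 4 called, against 16.1% of all genes. With the scanner's ratio 0 of the 4 were higher and 1 lower, beside 1714 and 1909 of all 23646 genes. The series table also gave 0 and 1. With median centring 0 of the 4 were called, beside 1171 of all genes higher and 972 lower. In pregnant mice Adipor2 alone of the 4 was called between P5 and P6, higher by 0.71, where 26.9% of all genes were called. Cdh13 is also expressed by vessels; 3 of 10 endothelial genes were called higher in virgin P4 than in P5 (6.56% of all genes), and 6 of 10 in pregnant mice (11.7%).

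The genes most alike to Pparg were Gng11 (r = 0.923), Kank2 (0.914) and Hspa12b (0.908). Those for Lipe were Ufsp1 (0.967), Lurap1 (0.935) and Morn2 (0.925), and those for Pnpla2 were Uqcrfs1 (0.954), a subunit of the respiratory chain, Pdk1 (0.937), a kinase that limits pyruvate oxidation, and Eif3m (0.926). Gng11 followed Pparg from 2.31 and 2.43 in virgin P6 to -0.98 and -1.22 in virgin P5, and Lurap1 followed Lipe from 1.88 and 1.67 in virgin P5 to -0.52 and -0.82 in virgin P6.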

How the data were processed

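Sorted-cell RNA was labelled with Cy5 and the reference with Cy3, per the labels' protocols. Quantification used Agilent Feature Extraction 9.5.3.1, per the submitters' processing notes. The deposited scanner files give mean and local background intensity per spot, the scanner's log10 ratio, and flags (saturated, well above background, outlier) with no unit. Log2 ratios in the authors' deposited value table were uncentred (column medians -0.0182 to 0.102) and Cy5 over Cy3, and correlated with the scanner's ratio at 0.990 to 1.00; that table was an alternative only.

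Intensities were corrected with normexp (offset 50) and loess in R 4.3.3 with limma 3.58.1, with 7 to 381 outlier local backgrounds set to the array's median, a step chosen after seeing the data. Control spots and outlier spots were left out. Probes well above background in Cy5 on both arrays of at least 1 of the 6 replicated groups were kept (34805 of 41174), and the brightest probe stood for a gene. In all, 23647 genes were tested. Of the probes, 22951 were named by accession, 6659 by symbol and 3109 by synonym of a RefSeq table of GRCm38.p6, and 8455 kept the file's name.

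Group means over 12 arrays (6 residual degrees of freedom) and 4 class means over 14 arrays (10) were fitted with lmFit and eBayes. To check pairing, deviations from group means of same-numbered arrays were correlated: 0.31 to 0.679 in virgin mice and 0.628 to 0.687 in pregnant mice, where they shared a scan, and at -0.204 to 0.138 across conditions. The labels do not say what the numbers stand for.

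The genes and lists were chosen with earlier results of these data known. All 9 genes are named. Of other lists, called genes are named up to the 4 largest differences per list and comparison, with the 3 most correlated genes per listed gene. Csn2, Pecam1 and Cdh5 are named beside results they move with, and 4 fat-cell genes after their values were seen.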

Additional observations from a re-analysis of the deposited data

How the results depend on the processing

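The median difference over all genes, between -0.05 and 0.05 in the reported comparisons of 2 groups, was larger with the scanner's ratio or the series table (0.11 in the pregnancy difference of P5, -0.17 between pregnant P4 and P5, and up to 0.17 between pregnant P5 and P6) and with median centring (0.15 in the pregnancy difference of P4 and 0.16 between pregnant P4 and P6). Counts of called genes among the 9 changed as follows, and the cause was not tested. Calls over all genes tested in the same setting, higher and then lower, follow in the parentheses. They are not given for the F test and the classes. With slide as a block the counts were 3 (virgin P4 against P5, 2952 and 2573) and 6 (virgin P5 against P6, 3419 and 3171). In pregnant mice they were 5 (P4 against P5, 3591 and 3267) and 6 (P4 against P6, 2220 and 1858). Between pregnant P5 and P6 the count was 4 (5475 and 4742). For pregnancy they were 1 (P4, 607 and 633) and 3 (P5, 1701 and 1715). They were 5 in the F test and 1 for enriched against depleted cells of pregnant mice. With scan as a block they were 1 (virgin P4 against P5, 3019 and 2713) and 2 (pregnant P4 against P6, 3119 and 2654). They were 3 (pregnant P5 against P6, 5663 and 4807), and 1 for pregnancy in P4 (854 and 904) and in the F test. The replicate block within each condition gave 1, 2 and 3 in those same pairs (3019 and 2713, 3119 and 2655, 5663 and 4808). It gave 3 and 2 for pregnancy in P4 (2044 and 2403) and P5 (5047 and 4589). It gave 1 in the F test and changed no other count. Leaving out scan 3 leaves 1 array per pregnant group, assumed to vary like the others. Of the 13 counts, 9 then changed by over 1.5 times or from 0. With only the arrays compared the counts were 3 (virgin P4 against P5, 2171 and 1593) and 2 (virgin P4 against P6, 1175 and 1228). They were 0 (pregnant P4 against P5, 1740 and 1131) and 1 (pregnancy in P5, 1530 and 1805). The Cy5 channel alone gave 1 (virgin P4 against P5, 1734 and 1631) and 1 (pregnant P4 against P6, 1903 and 1809). It gave 3 (pregnant P5 against P6, 4189 and 3634), and 1 for pregnancy in P4 (594 and 645) and in the F test. The mean over probes gave 1 in virgin P4 against P5 (1533 and 1172) and in pregnant P4 against P6 (1448 and 1402). It gave 1 for pregnancy in P5 (2563 and 2347). Means over the 8 groups gave 1 (enriched against depleted, pregnant). Median centring gave 0 (virgin P4 against P6, 506 and 518, and pregnant P5 against P6, 1320 and 1454). Local backgrounds as given gave 0 (virgin P4 against P6, 1119 and 577). The filter settings, the scanner's ratio and the series table kept every count within 1.5 times.

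Leaving out each array in turn gave 0 to 1 called genes for virgin P4 against P6, 1 to 4 for virgin P5 against P6, 0 to 5 for pregnant P4 against P5, 0 to 4 for pregnant P4 against P6, and 1 to 2 for pregnant P5 against P6. It gave 0 to 3 for pregnancy in P4, 0 to 1 in P5, 0 to 2 in the F test, 0 to 3 for enriched against depleted in pregnant mice and 0 to 1 for the difference between conditions. Leaving out 1 array of a replicated group leaves that group with 1 array, and its gap between replicates no longer enters the spread. The single-gene pregnancy differences, none of them called in the reported fit, changed sign in the following fits. With slide as a block they were -1.14 (Adipoq, P5), -1.83 (Cidec, P5), -0.05 and -2.15 (Plin1, P4 and P5), -0.12 and -1.73 (Retn, P4 and P5) and 1.95 (Fabp4, P4). Without scan 3 they were -0.03 (Cidec, P5), -0.19 (Retn, P4), -0.57 (Cfd, P5) and 1.71 (Fabp4, P4), and with scan as a block -0.11 (Plin1, P5), -0.38 (Cfd, P4) and 1.02 (Fabp4, P4). Fabp4 in P4, at -0.07 in the reported fit, was at 1.68 in the series table, 0.28 with median centring, 0.48 in Cy5 alone and 0.27 as the mean over probes. With single arrays left out, Cidec in P5 ran from -0.03 to 2.62, Retn in P4 from -0.19 to 2.59, Cfd in P5 from -0.57 to 5.18 and Fabp4 in P4 from -1.86 to 1.71. Saturation of Cfd and of the brighter Fabp4 probes on pregnant P4 replicate 1 limits their levels there, and dim signals near background limit the others elsewhere.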

Other observations

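The 2 GFP populations, with 1 array each and no test, were at 1.83 and 0.87 for Cfd, 1.02 and 0.40 for Cidec, 0.67 and 0.43 for Plin1, 0.25 and 0.18 for Adipoq, and -0.17 and 0.09 for Retn (GFPhi and GFPlo). For Pparg they were at 0.27 and 1.79. Slc2a4, the insulin-responsive glucose transporter, was at 5.57 in GFPhi and 3.1 in GFPlo, and in the replicated groups it was higher in P4 than in P5 by 4.57 in virgin mice (adjusted p = 0.0013) and by 4.36 in pregnant mice (adjusted p = 0.001, both limma). Its 4 P4 arrays ran from 5.41 to 6.49. Itih5, a heavy chain of the inter-alpha-trypsin inhibitor family, was at 3.49 in GFPhi and 4.65 in GFPlo, and was higher in pregnant P6 than in pregnant P5, with P5 minus P6 at -4.72 (adjusted p = 3.64e-05).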
